A study of Homo sapiens with 4 samples.

Results

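Transcripts of 36 genes of autophagy and the lysosome were followed in the human malignant glioma line GBM8401, in a derivative resistant to temozolomide (TMZ, an alkylating drug used against glioblastoma) and in the parental cells. The genes were taken by symbol from a table of 58219 gene IDs, and all 36 were found. They comprise 23 genes that build the autophagosome or bring cargo to it, 11 genes for lysosomal enzymes and membrane proteins, and the transcription factor genes TFEB and TFE3. The resistant group held 2 libraries from cells kept for 140 days in medium with 200 µM TMZ, and the parental group held 2 libraries of the same line, labelled parental. Both groups grew in serum-supplemented medium. The resistant cells are 1 derived line, so replicates do not stand for independently derived resistant lines, and whether the drug was present at harvest is not given in the sources used here.

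In macroautophagy a membrane sac closes around cytoplasm to form an autophagosome, which then fuses with a lysosome whose acid hydrolases digest the content. The ULK kinase complex starts the process, the class III PI3-kinase complex with beclin 1 marks the membrane with PI3P, and ubiquitin-like conjugation attaches small ATG8 proteins (the LC3 and GABARAP families) to its lipid. Cargo receptors bind both the cargo and ATG8 proteins, and the related factors TFEB and TFE3 switch on many autophagy and lysosome genes when they enter the nucleus. In glioma cells autophagy is known to be induced by TMZ.

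The deposited values are fragments counted on each gene and scaled by library, and they are not divided by gene length. Library totals were 23163310 and 24225039 in the resistant group and 24791254 and 25832511 in the parental group. Of 9 markers of glioma line identity 5 passed the filter on low values. VIM, NES and CD44 were abundant and all 3 fell in resistant cells, while 2 others did not pass the test. Among these 2 was the glial gene OLIG2, with 200 and 183 in resistant and 198 and 237 in parental libraries (limma adjusted p = 0.412). The glial genes GFAP and S100B were at most 4.25 in any library and SOX2 at most 10.5. Of 11 markers of macrophages and microglia, cells rich in lysosomes, 10 passed the filter on low values and AIF1 was listed at 0, and their summed values were 2000.3 and 1850.7 in resistant and 2161 and 1779 in parental libraries. Only CD68 of that list rose, by 1.81-fold, and only LAPTM5 fell, by 1.92-fold, so the sums combine opposite changes. Of the 5 fibroblast markers 0 passed, also at an unadjusted p under 0.05 (limma), and their sums were 10289 and 8540 in resistant and 9874 and 7856 in parental libraries. Of the 4 endothelial markers CDH5 fell, and their sums were 518 and 439 in resistant and 678 and 718 in parental libraries. The part of these markers in the results was not tested. In bulk RNA, fewer cells of a type and less RNA per cell cannot be told apart.

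Of the autophagosome genes that changed, 9 were higher and 1 lower in resistant cells, led by GABARAPL1 and NBR1, and of the lysosomal genes that changed 3 were higher and 2 lower. The share of tested genes that changed was 45.5% on both sides, and the difference between these splits was not tested. Wider lists did not repeat the contrast. Their median log2 fold changes were −0.02 for other core autophagy genes and 0.04 for other cargo receptor and mitophagy genes. For other lysosomal hydrolases the median was 0.19, for other membrane proteins 0.11, for vacuolar ATPase subunits 0.06 and for enzyme sorting −0.08. Of the 35 members that passed the filter on low values, 12 rose and 3 fell (limma, adjusted p under 0.05 over all genes tested). Over all 16132 genes tested, 37.1% changed, 16.2% as higher and 20.9% as lower, and of 13313 protein-coding genes 39.7% changed, 15.9% as higher and 23.8% as lower. The members' share of changed genes, 42.9%, was thus near the background, and the share that rose was 34.3%. Their median log2 fold change was 0.15, against −0.02 for all genes tested. With values scaled to library totals alone, 16 members rose and 2 fell, and 56.9% of all changed genes were higher instead of 43.7%.

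Among the 22 autophagosome genes tested 9 rose and 1 fell, with a median log2 fold change of 0.22. In the 11 lysosomal genes 3 rose and 2 fell, with a median of 0.15, and with scaling to library totals the split was 6 higher and 1 lower. In the deposited values the resistant libraries did not overlap the parental ones for 25 members, of which 18 had both resistant libraries above and 7 had both below. Of all genes tested 68.6% were separated in this way, 32.2% with resistant values above and 36.4% with them below. The split of members depended on the scaling. Divided by library totals, LAMP2, NPC1 and WIPI2 overlapped, while ATG2A, BECN1, PIK3C3, ATG7 and CTSD had both resistant libraries above. The calls on members were sensitive to single libraries. There were 7 without resistant replicate 1, 8 without resistant replicate 2, 12 without parental replicate 1 and 13 without parental replicate 2. Autophagosome calls were 5 higher and 1 lower without resistant replicate 1, and 6 higher and 0 lower without resistant replicate 2. Lysosomal calls were 1 higher and 0 lower without resistant replicate 1, 2 higher and 0 lower without resistant replicate 2, and 2 higher and 1 lower without parental replicate 1, so both lysosomal falls rest on having both resistant libraries. Calls over all genes fell to 3528 and 3786 without resistant replicate 1 and resistant replicate 2. The 6 genes called in each of the 13 alternative settings were GABARAPL1, NBR1, LAMP1, ULK1, WIPI1 and OPTN.

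**Figure D1:**
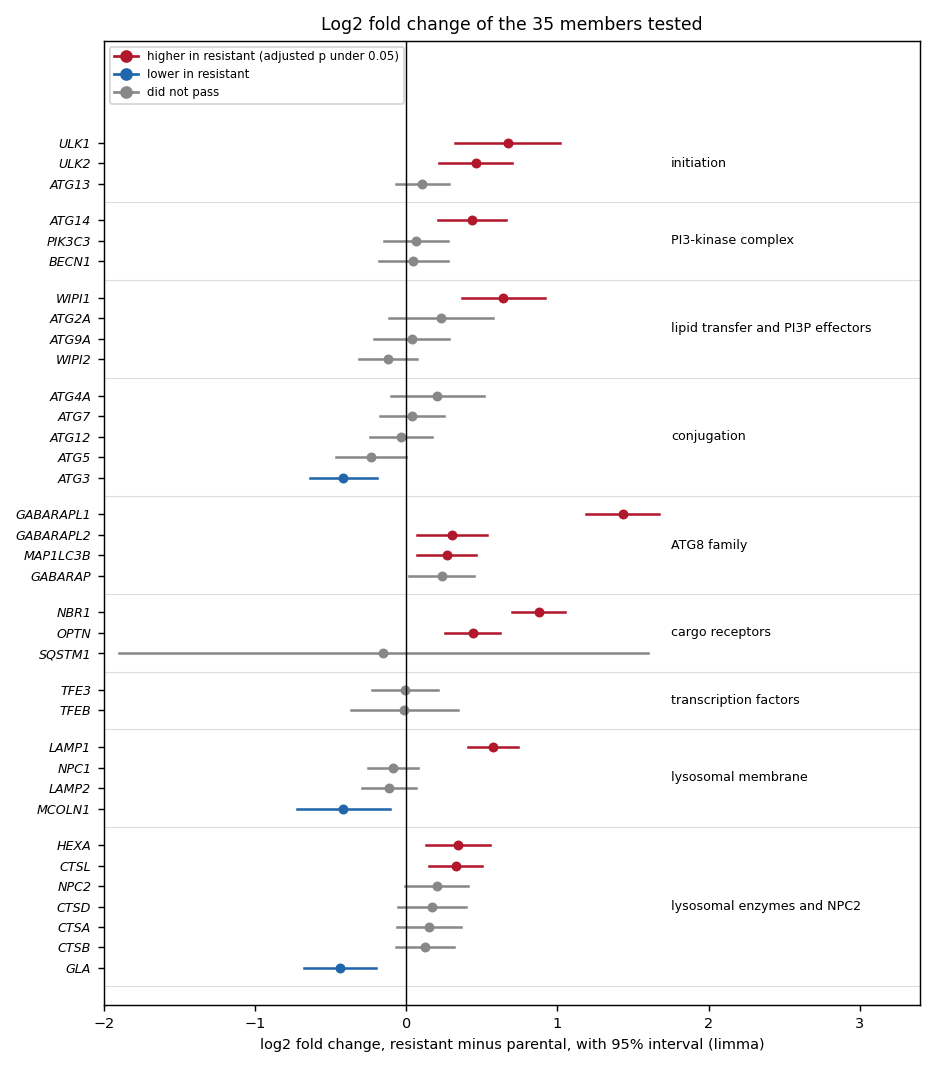
Log2 fold change of the 35 members tested (horizontal axis, resistant minus parental, with 95% intervals from limma), grouped by role, with colour for the direction of those that passed. GABARAPL1 stands apart at 1.43, SQSTM1 has the widest interval, and the members that fell are ATG3, MCOLN1 and GLA.

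The kinases that start autophagy were higher in resistant cells. ULK1, the human counterpart of yeast Atg1 (ENSG00000177169, GRCh38 and GENCODE 29, chromosome 12, 131894651 to 131923167, plus strand), had values of 1539 and 1541 in resistant libraries and 819 and 1141 in parental ones. The groups did not overlap, and the parental libraries differed from each other far more than the resistant ones. Its rise was 1.59-fold (log2 fold change 0.67 ± 0.15, SE; limma adjusted p = 0.0107). Its log2 fold change depended on which parental library was used, at 0.43 if parental replicate 1 was left out and 0.91 if parental replicate 2 was.

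ULK2, its close relative, had values of 1259 and 1192 in resistant and 819 and 970 in parental libraries. It rose 1.37-fold (adjusted p = 0.0108), a call that was lost without resistant replicate 1 (limma adjusted p = 0.076). ATG13, the regulatory subunit that both kinases bind, reached 2627 and 2524 in resistant and 2391 and 2389 in parental libraries. Its log2 fold change of 0.11 did not pass, with a 95% interval of −0.07 to 0.28.

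In the class III PI3-kinase complex the targeting subunit was higher while the catalytic and scaffold subunits did not pass. ATG14, which directs the complex to autophagy, had values of 764 and 740 in resistant and 553 and 559 in parental libraries, without overlap. The rise was 1.35-fold (log2 fold change 0.43 ± 0.10, SE; limma adjusted p = 0.00936), and it did not pass without resistant replicate 1 or resistant replicate 2 (0.0873 and 0.058). BECN1, which encodes the scaffold beclin 1, had values of 1969.9 and 2135 in resistant and 1832 and 2156 in parental libraries. Its log2 fold change was 0.05 (95% interval −0.18 to 0.27), and that of the lipid kinase PIK3C3 was 0.06 (−0.15 to 0.27). BECN1 shares exon positions with PSME3 on the other strand, whose values were 3328 and 3578 in resistant and 6258 and 5366 in parental libraries. It also shares them with CNTD1 on that strand, which had 329 and 352 in resistant and 187 and 197 in parental libraries. The libraries were strand-specific per the labels' protocols, but the strand setting of the counting is not given in the sources used here. Whether the deposited values keep fragments of such pairs apart is therefore not known.

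Of the genes that supply lipid to the growing membrane or read its PI3P, only WIPI1 rose. This PI3P-binding protein gene (ENSG00000070540, chromosome 17, 68420948 to 68457513, minus strand) had values of 587 and 543 in resistant libraries, against 385 and 339 in parental ones. All resistant values lay above the parental ones, and the rise was 1.56-fold (log2 fold change 0.64 ± 0.12, SE; limma adjusted p = 0.00406). WIPI1 overlaps ARSG on the other strand, a lysosomal sulfatase gene with values of 192 and 202 in resistant and 129 and 151 in parental libraries.

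WIPI2, which recruits ATG16L1 to the membrane, had a log2 fold change of −0.12 (95% interval −0.31 to 0.07). The lipid scramblase gene ATG9A stood at 0.04 (−0.21 to 0.29) and the lipid transfer gene ATG2A at 0.23 (−0.11 to 0.57), neither past the test. Replicates of ATG2A differed more than the groups did, with values of 1621 and 1997 in resistant and 1350 and 1745 in parental libraries. It passed without parental replicate 2 (log2 fold change 0.41, limma adjusted p = 0.0405).

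Of the conjugation genes only ATG3 passed, and it fell. ATG3, the E2-like enzyme that hands ATG8 proteins to lipid, had values of 1397 and 1290 in resistant and 1920 and 1673 in parental libraries. The groups did not overlap, and the log2 fold change was −0.42 ± 0.10 (SE), or 1.33-fold lower (limma adjusted p = 0.011). Without resistant replicate 2 the fall did not pass (adjusted p = 0.0799). ATG3 overlaps SLC35A5 on the other strand, which had 883 and 907 in resistant and 639 and 744 in parental libraries.

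ATG5, part of the E3-like complex, had a log2 fold change of −0.24 that failed the correction (adjusted p = 0.101), although both resistant values, 627 and 692, lay below the parental 763 and 790. ATG7, the E1-like enzyme, had 858 and 914 in resistant and 866 and 860 in parental libraries. The log2 fold changes of ATG7, ATG12, the ubiquitin-like partner of ATG5, and ATG4A, a protease that trims ATG8 proteins, were 0.04, −0.03 and 0.21, with adjusted p of 0.789, 0.803 and 0.267, and that of ATG12 was positive with TMM factors (0.0058) and with scaling to library totals (0.062). ATG16L1, the partner of the ATG12-ATG5 conjugate, was listed at 0 in both resistant libraries and at 0.813 and 1.91 in the parental ones, which is 1 and 2 fragments, and it was not tested. Genes that most cells use, such as RPS18 and CLIC1, are also listed at 0 in all 4 libraries, so a value at or near 0 in this table is not read as absence of expression.

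All 4 ATG8 genes had higher values in both resistant libraries than in either parental one, as did 32.2% of all genes tested. Of the 4, 3 passed as higher, as did 16.2% of all genes tested (limma, adjusted p under 0.05). GABARAPL1 (ENSG00000139112, chromosome 12, 10212458 to 10223130, plus strand) changed most of all members, with values of 914 and 952 in resistant libraries, against 359 and 333 in parental ones. The gap between the groups was many times the difference between replicates. Its rise was 2.70-fold, a log2 fold change of 1.43 ± 0.11 (SE; limma adjusted p = 8.79e-05), and over 13 alternative settings it ran from 1.38 to 1.53. GABARAPL3, a near-identical copy, had at most 1 fragment in any library, and the antisense gene AC115676.1 was listed at 0 in all 4.

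MAP1LC3B, which encodes the LC3B protein used as the common marker of autophagosomes, had values of 1635 and 1555 in resistant and 1369 and 1283 in parental libraries. This was a rise of 1.2-fold (limma adjusted p = 0.0389), which did not pass without resistant replicate 1 (0.24), resistant replicate 2 (0.119) or parental replicate 2 (0.13). GABARAPL2 had values of 781 and 857 in resistant and 678 and 647 in parental libraries. The 1.23-fold rise (limma adjusted p = 0.044) did not pass without any 1 of the 4 libraries, where the adjusted p ran from 0.0591 to 0.298. Both rises were thus small beside that of GABARAPL1. MAP1LC3B shares exon positions with FBXO31 on the other strand, which had 989 and 1087 in resistant and 1060 and 1097 in parental libraries. MAP1LC3B2, a near copy of MAP1LC3B, had 89.6 and 90.0 in resistant and 82.2 and 85.1 in parental libraries.

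GABARAP itself had 1521 and 1654 in resistant and 1425 and 1275 in parental libraries, a log2 fold change of 0.23 ± 0.09 (SE) that failed the correction (limma adjusted p = 0.0839). It passed with TMM factors (0.0416) and with scaling to library totals (0.0172). A read-through gene on the same strand, AC120057.2, was listed at 226 and 0 in resistant and 0 and 73.0 in parental libraries. GABARAP and this gene together came to 1747 and 1654 in resistant and 1425 and 1348 in parental libraries, so the sum was higher in both resistant libraries.

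The make-up of the ATG8 family differed between the groups. Levels of different genes were compared per kb of exon sequence, since the deposited values follow gene length. GABARAPL1 made up 15.3% and 15.2% of the summed level per kb of the 4 genes in resistant libraries, against 7.33% and 7.41% in parental ones. GABARAP was the most abundant, with 46.7% ± 1.05 in resistant and 51.9% ± 0.92 in parental cells (SD, n = 2). MAP1LC3B held 20.1% ± 1.45 in resistant and 21.7% ± 0.33 in parental cells. GABARAPL2 held 18.0% ± 0.52 in resistant and 19.0% ± 0.53 in parental cells. With the longest transcript in place of all exons the share of GABARAPL1 was 13.6% in resistant and 6.5% in parental cells. The shares stand as a description, with no test.

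**Figure D2:**
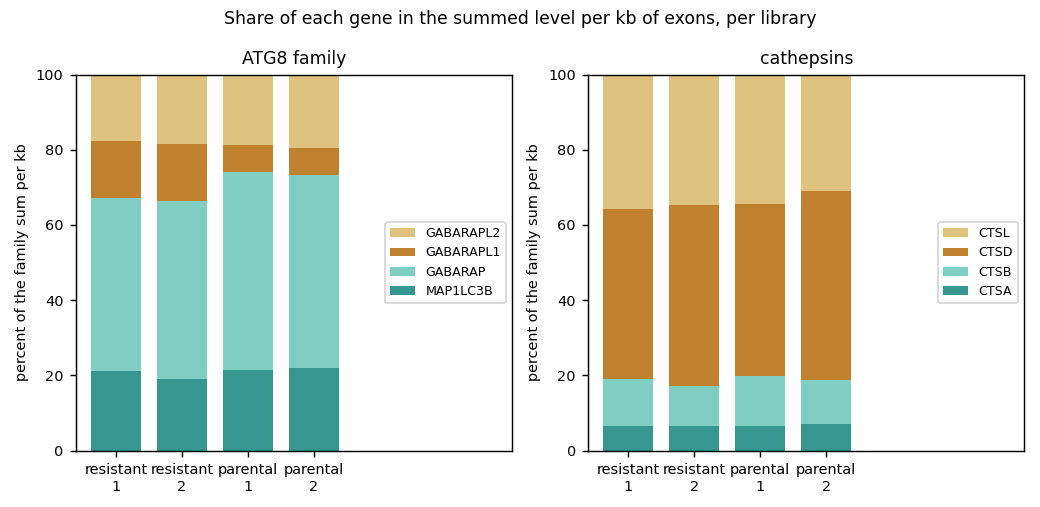
Share of each gene (vertical axis, percent of the family's summed level per kb of exons) in the ATG8 family and among the 4 cathepsin members, one bar per library, with resistant libraries on the left of each panel. The GABARAPL1 band is about 15% of the ATG8 sum in both resistant libraries and about 7.4% in both parental ones, while among the cathepsins CTSL is 35.9% and 34.6% in resistant and 34.4% and 30.9% in parental libraries.

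Of the cargo receptors NBR1 and OPTN were higher and SQSTM1 could not be judged. NBR1, a receptor for ubiquitinated aggregates and peroxisomes (ENSG00000188554, chromosome 17, 43170481 to 43211689, plus strand), had values of 8069 and 7561 in resistant libraries, against 4092 and 4432 in parental ones. It was the member with the highest deposited value in the resistant libraries, and the groups lay far apart. The rise was 1.83-fold (log2 fold change 0.87 ± 0.08, SE; limma adjusted p = 1.68e-04). NBR1 overlaps the long noncoding gene AC060780.1 on the other strand, which had 571 and 544 in resistant and 433 and 506 in parental libraries.

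OPTN, which encodes optineurin, a receptor in the removal of mitochondria and bacteria, had values of 1873 and 1811 in resistant and 1352 and 1363 in parental libraries. Its rise was 1.36-fold (log2 fold change 0.44 ± 0.08, SE; limma adjusted p = 0.00355). On chromosome 10 the 22 tested coding genes within 2 Mb of OPTN had a median log2 fold change of −0.32. SQSTM1, the p62 receptor that is itself degraded by autophagy, had values of 527 and 859 in resistant and 483 and 1154 in parental libraries. Its parental replicates differed 2.39-fold and its resistant replicates 1.63-fold, and the 95% interval of its log2 fold change reached from −1.90 to 1.6. A change of the size seen for NBR1 was therefore not detectable for SQSTM1 with these libraries. MRNIP, which overlaps it on the other strand, had 114 and 138 in resistant and 48.8 and 127 in parental libraries. MGAT4B, which also overlaps SQSTM1 on that strand, had 5.27 and 6.79 in resistant and 5.69 and 6.69 in parental libraries.

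**Figure D3:**
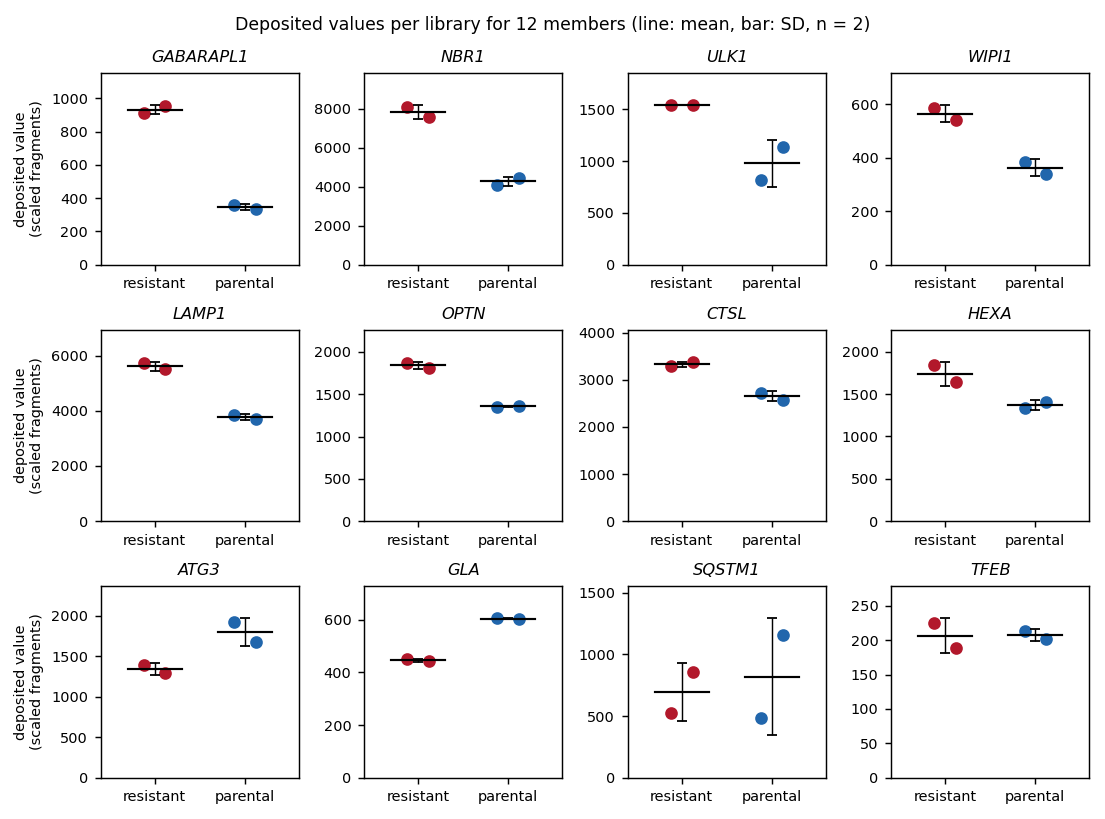
Deposited value (vertical axis, scaled fragments, starting at 0) of 12 members in each resistant (left) and parental (right) library, with the mean and SD of 2 libraries. GABARAPL1, NBR1, ULK1, WIPI1, LAMP1 and OPTN are higher in both resistant libraries, ATG3 and GLA are lower in both, and the groups overlap for SQSTM1 and TFEB.

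The transcription factor genes showed no difference past the test. TFEB had 224 and 189 in resistant and 213 and 202 in parental libraries. Its log2 fold change of −0.01 had a 95% interval of −0.37 to 0.34, and it was positive with TMM factors (0.028), median-of-ratios factors (0.0040) and scaling to library totals (0.083). TFE3 was more abundant per kb of exons, at 23.4 ± 1.30 against 1.55 ± 0.24 for TFEB in resistant cells (deposited value per kb and per 1000000 of the library total, SD, n = 2). It had 2230 and 2524 in resistant and 2253 and 2532 in parental libraries, and its log2 fold change was −0.01 (95% interval −0.23 to 0.21), and positive with the same 3 alternatives, at 0.030, 0.0061 and 0.086. MITF, a relative from the mTORC1 list, fell by 0.50 on the log2 scale (limma adjusted p = 0.00415). These are RNA values, and the activity of TFEB and TFE3 is set largely by where the proteins reside.

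TFEB and TFE3 bind the letters CACGTG, the core of the coordinated lysosomal expression and regulation motif, so promoters of members were read for it. RefSeq gave windows (GRCh38.p14, 250 bases before to 50 after the start) for 33 of the 36 members, and for genes with several starts any window was counted. CACGTG, which reads the same on both strands, was in a window of 6 members, which were LAMP1, MCOLN1, CTSA, CTSD, ATG3 and ATG14. It was in 4 of the 8 lysosomal members with a window, in 2 of the 23 autophagosome members and in 8.77% of the 27305 genes with a window. All 6 members also held the longer TCACGTG on one strand or the other, as did 4.49% of all genes. The 250 bases before the start of the 4 lysosomal genes are shown here because they hold the motif while their RNA differed in direction, with CACGTG in capitals.
LAMP1 (chr13:113296989-113297238, plus strand): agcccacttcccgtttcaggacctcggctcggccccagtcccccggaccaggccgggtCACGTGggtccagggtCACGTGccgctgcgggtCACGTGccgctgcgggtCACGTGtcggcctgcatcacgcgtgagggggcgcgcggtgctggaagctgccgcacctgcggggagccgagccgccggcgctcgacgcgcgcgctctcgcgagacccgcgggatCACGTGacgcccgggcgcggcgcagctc
MCOLN1 (chr19:7522374-7522623, plus strand): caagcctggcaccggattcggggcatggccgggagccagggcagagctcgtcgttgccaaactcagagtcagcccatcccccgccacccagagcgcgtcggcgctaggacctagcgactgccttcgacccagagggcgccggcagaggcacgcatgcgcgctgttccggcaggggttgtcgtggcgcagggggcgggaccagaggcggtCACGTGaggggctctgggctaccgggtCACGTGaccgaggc
CTSA (chr20:45891085-45891334, plus strand): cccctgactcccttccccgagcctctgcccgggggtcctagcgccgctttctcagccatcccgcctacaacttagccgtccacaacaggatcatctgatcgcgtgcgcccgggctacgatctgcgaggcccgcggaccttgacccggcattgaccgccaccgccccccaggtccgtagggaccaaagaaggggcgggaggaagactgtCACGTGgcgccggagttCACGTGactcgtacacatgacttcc
CTSD (chr11:1763928-1764177, minus strand): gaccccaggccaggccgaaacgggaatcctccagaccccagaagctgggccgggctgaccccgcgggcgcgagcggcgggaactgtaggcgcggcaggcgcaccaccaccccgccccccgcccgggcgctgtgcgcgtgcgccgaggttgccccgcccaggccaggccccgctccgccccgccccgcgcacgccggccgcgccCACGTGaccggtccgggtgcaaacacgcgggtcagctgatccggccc

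The window of LAMP1 held 6 copies, 5 of them within the printed stretch and the other across the start, and those of MCOLN1, CTSA and ATG3 held 2 each. Among the 6 members with the motif LAMP1 and ATG14 rose, MCOLN1 and ATG3 fell, and CTSA and CTSD did not pass. GABARAPL1, with the largest rise, had no CACGTG in its window, nor had NBR1, ULK1, WIPI1 or OPTN. The letters TGACNNNGC, the core of the antioxidant response element, were in a window of 7 of the 33 members (21.2%), against 16.1% of all genes. They were in 6 of the 8 lysosomal members with a window and in 1 of the 23 autophagosome members. The 7 members were LAMP1, CTSA, CTSD, CTSL, NPC2, GLA and MAP1LC3B. No window held TGATGNAA, a core bound by ATF4 with C/EBP factors, which 4.46% of all genes had, and motifs other than CACGTG were sought on both strands, with overlaps allowed. A match is a run of letters and not a measured binding site.

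Among the 4 lysosomal membrane genes LAMP1 rose and MCOLN1 fell. LAMP1, a major glycoprotein of the lysosomal membrane (ENSG00000185896, chromosome 13, 113297241 to 113323672, plus strand), had values of 5728 and 5494 in resistant libraries, against 3840 and 3689 in parental ones. There was no overlap, and the rise was 1.49-fold (log2 fold change 0.58 ± 0.07, SE; limma adjusted p = 6.87e-04). LAMP2, its paralog, which is also needed for chaperone-mediated autophagy, had 2644 and 2769 in resistant and 2828 and 3034 in parental libraries. The log2 fold change of LAMP2 was −0.11 (95% interval −0.30 to 0.07), and the ratio of LAMP1 to LAMP2 values was 2.17 and 1.98 in resistant and 1.36 and 1.22 in parental libraries.

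NPC1, the cholesterol exporter of the membrane, had 3156 and 3201 in resistant and 3339 and 3418 in parental libraries. Its log2 fold change was −0.09 (95% interval −0.25 to 0.08), and 0.0074 with scaling to library totals. MCOLN1, the calcium channel TRPML1, had values of 227 and 249 in resistant and 304 and 332 in parental libraries. The fall of 0.42 on the log2 scale passed (limma adjusted p = 0.0403), but it did not pass without any 1 of the 4 libraries (0.0506 to 0.232), with no filter on low values (0.0546) or with scaling to library totals (0.0715). MCOLN1 overlaps PNPLA6 on the same strand, which had higher values in resistant libraries, 1401 and 1705, than in parental ones, 819 and 1228.

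Of the 7 genes for enzymes and luminal proteins CTSL and HEXA rose and GLA fell. CTSL, the cysteine protease cathepsin L, had values of 3286 and 3367 in resistant and 2728 and 2580 in parental libraries, a 1.25-fold rise (limma adjusted p = 0.011). HEXA, the alpha subunit of beta-hexosaminidase, had 1840 and 1640 in resistant and 1331 and 1412 in parental libraries, a 1.27-fold rise (limma adjusted p = 0.0197). Neither gene overlapped between groups. CTSL did not pass without resistant replicate 1 or resistant replicate 2 (adjusted p = 0.0562 and 0.0768), and HEXA did not pass without resistant replicate 1 or parental replicate 1 (0.183 and 0.0674).

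GLA, which encodes alpha-galactosidase A, had values of 449 and 442 in resistant and 604 and 601 in parental libraries. Replicates differed little, and the gene was 1.35-fold lower (log2 fold change −0.44 ± 0.10, SE; limma adjusted p = 0.0119). The call did not hold without resistant replicate 1 or resistant replicate 2 (adjusted p = 0.0729 and 0.0842), although the log2 fold change stayed between −0.45 and −0.34 in all 13 settings. CTSD, the most abundant, had 5456 and 6193 in resistant and 4800.01 and 5567 in parental libraries, so its groups overlapped. The remaining luminal genes also did not pass. These were CTSD (aspartic protease, 0.17), CTSA (carboxypeptidase and protective protein, 0.15), CTSB (cysteine protease, 0.12) and NPC2 (cholesterol carrier, 0.20), with log2 fold changes whose 95% intervals all included 0. With scaling to library totals CTSA, CTSD and NPC2 did pass as higher (limma adjusted p = 0.0367, 0.0238 and 0.0277).

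CTSD was the most abundant member by either measure of length. Per kb of exons it had a level of 78.6 ± 4.55 in resistant and 65.4 ± 4.95 in parental cells (deposited value per kb and per 1000000 of the library total, SD, n = 2). CTSL followed with 59.3 ± 0.87 in resistant and 44.4 ± 3.05 in parental cells, and LAMP1 with 41.3 ± 2.53 in resistant and 25.9 ± 1.49 in parental cells. NBR1 was the highest autophagosome gene in resistant cells, at 39.3 ± 3.05 against 20.0 ± 0.55 in parental cells. In the resistant libraries the order of CTSD, CTSL and LAMP1 was free of overlap, while LAMP1 and NBR1 overlapped. This order depended on the length used. Per kb of the longest transcript NBR1 came next after CTSD in resistant cells, at 70.9, ahead of CTSL at 64.5, NPC2 at 54.3 and LAMP1 at 45.2. Per kb of exons NBR1 had rank 4 in resistant and rank 9 in parental cells. TFEB was the lowest of the 35 members tested, at 1.55 in resistant and 1.45 in parental cells. Among the cathepsins CTSD made up 46.6% ± 2.15 of the sum per kb in resistant and 48.1% ± 3.29 in parental cells.

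**Figure D4:**
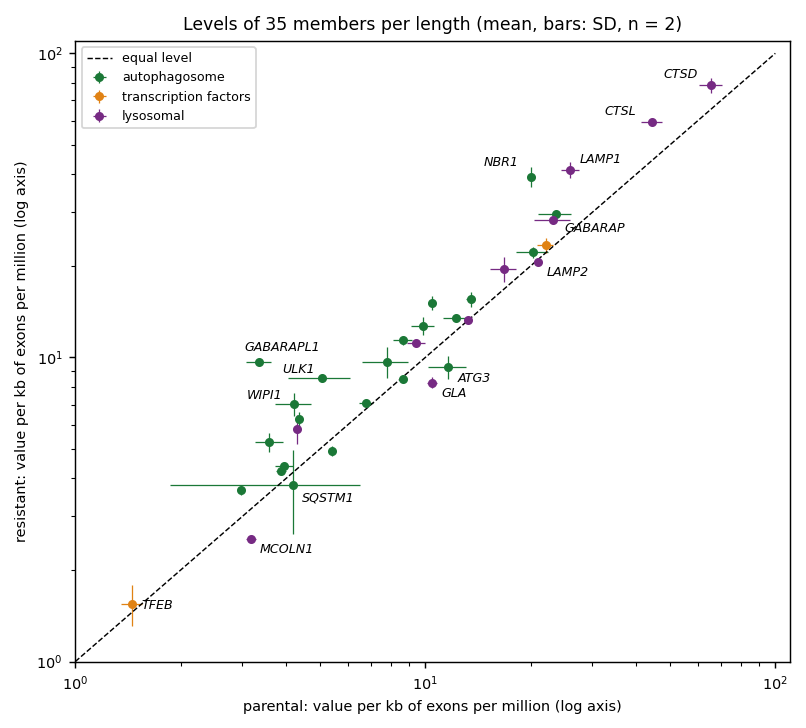
Level per kb of exons and per 1000000 of the library total in resistant (vertical) and parental cells (horizontal) for 35 members, on log axes, with the SD of 2 libraries and a dashed line of equal level. GABARAPL1, NBR1, ULK1 and WIPI1 lie above the line, and GLA, ATG3 and MCOLN1 lie below it.

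Other genes of the pathway were counted from lists of known members. The share changed ran from 15.4% for enzyme sorting to 53.8% for stress-linked genes, on both sides of the 37.1% over all genes tested, and nothing is read from these shares about a list. Of 19 other core autophagy genes tested 4 rose and 2 fell, with a median log2 fold change of −0.02. VMP1, a membrane scramblase needed for autophagosome formation, had values of 4729 and 4860 in resistant and 2362 and 2776 in parental libraries, a 1.87-fold rise. ZFYVE1, the PI3P-binding marker of omegasomes, rose 1.81-fold and the WIPI relative WDR45 1.47-fold. RUBCN, which encodes rubicon, an inhibitor of autophagy, was 1.45-fold lower. These 4 changes had limma adjusted p between 2.93e-04 and 0.00385.

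Among 19 other cargo receptor and mitophagy genes 4 rose and 1 fell (median 0.04). CALCOCO1, a receptor in the turnover of the endoplasmic reticulum and Golgi, had values of 3319 and 3598 in resistant and 1440 and 1834 in parental libraries, a 2.13-fold rise. CALCOCO2 (NDP52), a receptor for bacteria and mitochondria, rose 1.69-fold, the mitophagy receptor gene BCL2L13 1.41-fold and CCPG1, a receptor for the endoplasmic reticulum, 1.35-fold. RETREG1, another receptor for the endoplasmic reticulum, had 211 and 161 in resistant and 268 and 265 in parental libraries and was the gene that fell (limma adjusted p = 0.0373). RETREG1 was called in 8 of 13 alternative settings, and its adjusted p reached 0.272 without resistant replicate 2. It also did not pass with TMM factors or with scaling to library totals. All 4 that rose were higher in both resistant libraries than in either parental one, as were 32.2% of all genes tested. This adds no support to the calls, which rest on the same values.

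Of 16 fusion genes tested 4 rose and 2 fell (median 0.16). The autophagosomal SNARE gene STX17 had values of 1269 and 1332 in resistant and 720 and 819 in parental libraries, 1.69-fold higher. Its 23 tested coding neighbours within 2 Mb had a median log2 fold change of 0.26, 10 of them higher and 1 lower. The tethering genes VPS39 and EPG5 rose 1.42-fold and 1.37-fold, while the SNARE gene YKT6 was 1.5-fold lower, with 2643 and 2775 in resistant and 4037 and 4074 in parental libraries.

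Of 37 other hydrolases and activators tested 13 rose and 3 fell (median 0.19), and the share changed was 43.2%. PSAP, the precursor of the saposins, had values of 15804 and 16183 in resistant and 10599 and 10898 in parental libraries, a 1.49-fold rise. The acid lipase gene LIPA and the cathepsin gene CTSF were both 1.56-fold higher, and CTSC, which activates serine proteases, was 1.81-fold lower. LIPA lies on chromosome 10 among 20 tested coding genes with a median of 0.37, 8 of them higher and 3 lower. Without resistant replicate 1 or resistant replicate 2 the hydrolases that changed numbered 10 each time. NEU1 and CTSO were listed at 0 in all 4 libraries.

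In other lysosomal membrane proteins and transporters 6 of 21 rose and 1 fell (median 0.11). SIDT2, a nucleic acid transporter, rose 1.98-fold, LAPTM4B 1.31-fold and the LIMP-2 gene SCARB2 1.21-fold, and HGSNAT, an acetyltransferase for heparan sulfate, was 1.34-fold lower. The vacuolar ATPase, the proton pump of the lysosome, showed 4 subunit genes higher and 4 lower of 19 (median 0.06). ATP6V0A1 had values of 2191 and 2299 in resistant and 1480 and 1525 in parental libraries, while its isoform ATP6V0A2 had 503 and 583 in resistant and 896 and 813 in parental ones. The membrane subunit isoforms thus changed in opposite directions, by 0.58 and −0.66 on the log2 scale. ATP6V1A rose 1.31-fold and ATP6V1C1 was 1.41-fold lower. Of 13 genes that sort enzymes to the lysosome 0 rose and 2 fell. GNPTAB, a subunit of the enzyme that makes the mannose 6-phosphate tag, fell by 0.41 and GGA2 by 0.37 on the log2 scale. An unadjusted p under 0.05 (limma) was reached by 5 of the 13, beside 7537 of all 16132 genes tested. The adaptor genes AP1M1 and AP1G1 had log2 fold changes of −0.30 and −0.19 and did not pass (limma adjusted p = 0.0867 and 0.0913). Leaving out a library lowered the counts of membrane proteins and ATPase subunits each time. The count of sorting genes fell only without resistant replicate 1. The 7 changes among membrane proteins became 2, 3, 4 and 4 without resistant replicate 1, resistant replicate 2, parental replicate 1 and parental replicate 2, and SCARB2, LAPTM4B and HGSNAT each lost their call in at least 1 of these fits. The 8 changes among ATPase subunits became 5, 3 and 5 without resistant replicate 1, resistant replicate 2 and parental replicate 2, and the sorting genes that changed numbered 1 without resistant replicate 1.

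Among 28 genes that control mTORC1 at the lysosome 5 rose and 5 fell, with a median of 0.00. The share changed was 35.7%, near the 37.1% over all genes tested. The rises included SESN1 and SESN2, stress-induced sestrins that restrain mTORC1, at 1.96-fold and 2.18-fold. SESN2 had values of 1505 and 1541 in resistant and 615 and 793 in parental libraries. RRAGD, a Rag GTPase gene, rose 1.77-fold and FNIP2, a folliculin partner, was 1.63-fold lower. Of 13 stress-linked autophagy genes 6 rose and 1 fell (median 0.23). TP53INP1, a p53 target, had values of 1139 and 1115 in resistant and 375 and 372 in parental libraries, and DEPP1, a FOXO target, had 544 and 584 in resistant and 79.7 and 71.7 in parental ones. The rises were 3.01-fold for TP53INP1 and 7.37-fold for DEPP1, with replicates close together. DRAM2, a lysosomal membrane protein gene, rose 1.42-fold, and PRKAG1, a regulatory subunit of AMP-activated kinase, 1.33-fold. Without resistant replicate 1 the mTORC1 genes that changed numbered 5 and the stress-linked genes 2, and without resistant replicate 2 the stress-linked genes numbered 4.

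**Figure D5:**
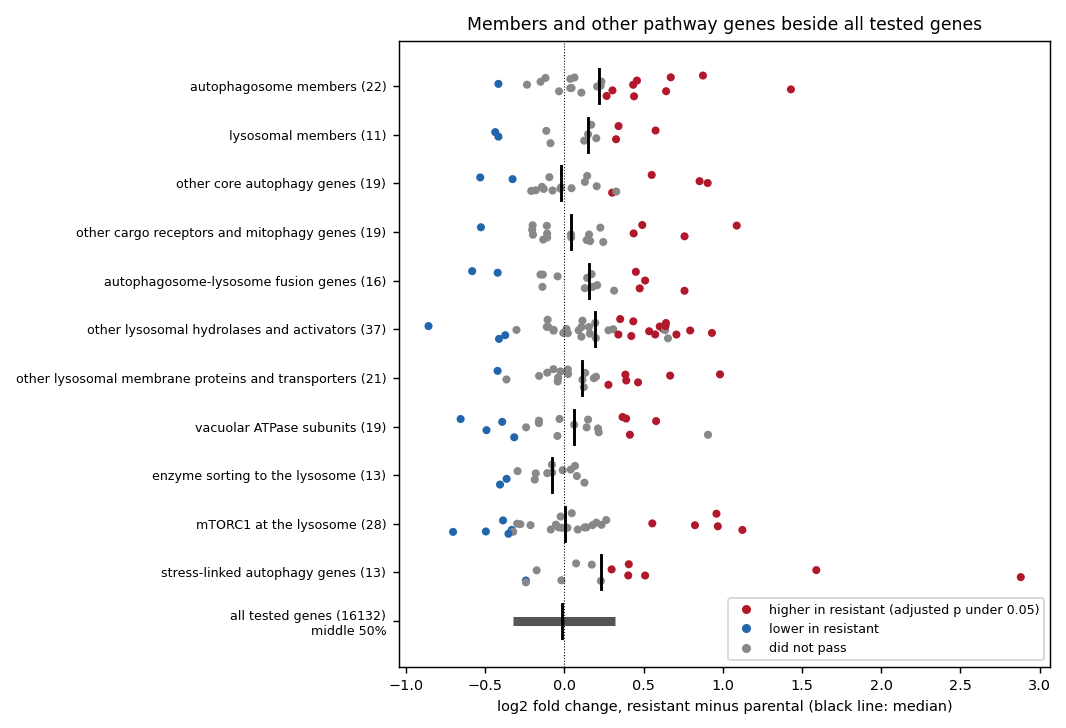
Log2 fold change (horizontal axis, resistant minus parental) of the autophagosome and lysosomal members and of 9 lists of other pathway genes, one point per gene with its direction in colour, a black line at each median, and a bar for the middle 50% of all 16132 genes. The medians of the lists run from −0.08 for enzyme sorting to 0.23 for stress-linked genes, and the bar for single genes runs from −0.32 to 0.32.

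The neighbourhoods of the 6 members called in every setting are given as a description. Tested coding genes within 2 Mb had a median log2 fold change of 0.18 around GABARAPL1 (17 genes), −0.02 around NBR1 (89), 0.05 around LAMP1 (16), −0.06 around ULK1 (25) and −0.09 around WIPI1 (17), beside −0.32 around OPTN.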

How the data were processed

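RNA from 2 TMZ-resistant and 2 parental GBM8401 libraries was compared, grouped by the treatment in the labels. Per the labels' protocols, total RNA went into strand-specific libraries. Per the submitters' processing notes, the build was GRCh38.p10 and the software Cufflinks 2.2.1 (Cuffdiff among its programs), HISAT2 2.1.0, SAMtools 1.2, Trimmomatic 0.36 and bcl2fastq. Program settings, annotation release, strandedness and scaling method are not given there. The authors deposited a signal, fragments per gene times a factor for each library. Dividing by the most frequent value above 0 gave whole numbers within 0.05 for 93.8% to 94.3% of values and 27019137 to 30759939 fragments a library.

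Genes with a deposited value of at least 10 in 2 libraries and a sum of at least 15 were tested as log2(value + 1) with limma 3.58.1 (R 4.3.3), with trend and robust moderation and the group as the only term. Tests were two-sided with Benjamini-Hochberg adjustment over all 16132 genes. Fold changes on this scale understate the change of low genes. Alternatives covered scaling, pseudocount, filter, moderation, a left-out library and a replicate block.

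Positions, exon lengths and overlaps are from GENCODE 29 (GRCh38), symbols from a gene name table, promoters from RefSeq. The text names all 36 members, and from each pathway list up to 4 tested genes with the smallest adjusted p. Genes named outside this rule (RETREG1, MITF, NEU1, CTSO, single marker genes and the other genes listed at 0) were chosen after their values were seen. Members, lists and tests were chosen with earlier results of these data known. The labels call replicates biological but tie no number to a shared culture, so p-values measure the spread between these libraries.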

Additional observations from a re-analysis of the deposited data

How the results depend on the processing

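Over members and alternative settings, 397 results kept direction and side of the threshold, 25 lost the call, 11 gained it and 22 changed sign. Without 1 library in turn, the members changed numbered 7 to 13, the autophagosome members 6 to 9, the lysosomal members 1 to 4, and all genes 3528 to 5435. The median log2 fold change then ran from 0.14 to 0.23 for autophagosome and 0.062 to 0.19 for lysosomal members. Scaling to library totals gave medians of 0.31 and 0.24, and moved the median of all genes from −0.02 to 0.08. The longest transcript gave a GABARAPL1 share of 13.6% against 15.2%. The cause of these moves was not tested. No called member changed sign in a setting run. Sign changes were in genes that did not pass. Leaving out 1 library in turn, the log2 fold change ran from −0.072 to 0.16 for BECN1, −0.025 to 0.15 for PIK3C3, −0.10 to 0.18 for ATG9A, −0.0076 to 0.082 for ATG7, −0.11 to 0.046 for ATG12, −0.78 to 0.48 for SQSTM1, −0.14 to 0.11 for TFEB and −0.099 to 0.080 for TFE3. With TMM factors it was 0.0058 for ATG12, 0.028 for TFEB and 0.030 for TFE3. With scaling to library totals it was 0.062 for ATG12, 0.083 for TFEB, 0.086 for TFE3 and 0.0074 for NPC1. With median-of-ratios factors it was 0.0040 for TFEB and 0.0061 for TFE3. With the replicate number as a block, 20 members (16 higher, 4 lower), 13 autophagosome and 7 lysosomal members and 8624 genes changed, and the medians stayed at 0.22 and 0.15. The members gained were GABARAP, ATG2A, ATG5, CTSD and NPC2 (limma adjusted p = 0.00405, 0.00398, 0.0194, 0.0201 and 0.0115), and none was lost. Same-numbered libraries deviated together (correlation 0.27 across genes), but with 2 pairs this does not show that the numbers pair the samples. For the lists of other genes, 102 counts stayed within 1.5 times the value given and 15 did not. With the replicate number as a block 11 cargo and mitophagy genes and 5 sorting genes changed, against 5 and 2. Count-based tests on recovered fragments (edgeR and DESeq2) were not run, because only 93.8% to 94.3% of the values were whole multiples of a step.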
